A study of Mus musculus with 10 samples.

Results

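The genes described here make, use and clear S-adenosylmethionine, the methyl donor of the cell. They are Mat1a and Mat2a, which make it, Ahcy, which clears its product, and the methyltransferases Gnmt, Pemt, Gamt, Inmt, Nnmt and Hnmt, which pass its methyl group to small molecules. These 9 genes were chosen by name as a pathway, except that Inmt was chosen because it was the gene with the largest fall after Rab5 siRNA. In the annotation of the array 8 of the 9 had a probe set with that symbol alone, 1 each. Probe sets with several symbols were not used. All 8 passed the filter on dim signals, among 12855 genes tested in all. Mat2a was not analysed here.

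RNA of whole liver from male C57BL/6 NHsd mice was hybridised to Affymetrix mouse arrays, where a set of short oligonucleotides (a probe set) reads each transcript. The groups were livers after siRNA against Rab5all (4 arrays), after a control siRNA (4 arrays) and after phosphate-buffered saline (PBS, 2 arrays), 10 arrays in all. Both siRNAs were given in lipid nanoparticles by tail vein at 1.5 mg/kg, and livers were taken on day 5. In the titles the control RNA is scrambled, whereas the design text gives it luciferase as target. Rab5 proteins are small GTPases of early endosomes. There was 1 set of Rab5 siRNAs, and the labels neither give the age of the mice nor say in words that each liver came from its own mouse, so errors and tests here rest on the spread among the samples, which may be technical.

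In the liver, methionine from food and protein is joined to ATP by methionine adenosyltransferase, of which Mat1a encodes the form of mature hepatocytes and Mat2a that of most other cells. Methyltransferases turn the resulting S-adenosylmethionine into S-adenosylhomocysteine, which inhibits them until it is hydrolysed by Ahcy to homocysteine. Homocysteine is then methylated back to methionine or drawn off towards cysteine.

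All values are deposited log2 expression values, and a difference is the difference of group means on that scale with its standard error (SE) from a limma model over all 10 arrays. Levels of different genes are not set against each other, since each comes from its own probes. Rab5a, one of the targets, averaged 6.86 ± 0.402 with Rab5 siRNA and 8.67 ± 0.228 with control siRNA (SD, n = 4 each), and Rab5c averaged 7.21 ± 0.159 with Rab5 siRNA and 9.21 ± 0.155 with control siRNA (SD, n = 4 each). Rab5b was near the median of the whole table (4.33) in both, at 4.10 ± 0.246 with Rab5 siRNA and 4.34 ± 0.156 with control siRNA (SD, n = 4 each). Hepatocyte markers were high, their mean log2 level per array being 13.12 to 13.15 with Rab5 siRNA, 13.09 to 13.12 with control siRNA and 13.08 to 13.13 with PBS. Some lay near the array maxima of 14.43 to 14.48, as Alb did (14.11 with Rab5 siRNA). The mean also joins opposite differences from control siRNA, as of Ahsg (0.69) and Cps1 (-0.35), so it does not measure the number of hepatocytes. Rab5 siRNA replicate 1 stood apart from its group on the first principal component, at 17.5 against 30.3 to 38.3 for the other Rab5 arrays, with -25.0 to -15.9 for the control siRNA arrays.

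All 8 measured genes had a lower mean with Rab5 siRNA than with control siRNA, from Inmt at -3.64 to Hnmt at -0.09. In 5 of them, Inmt, Nnmt, Mat1a, Gnmt and Ahcy, every Rab5 array lay below every control siRNA array. Lower without overlap was found for 11.2% of all genes tested. The model called 6 of the 8 genes lower and 0 higher, where it called 9.51% of all genes lower and 13.8% higher. In a fit of all 45037 probe sets without a filter 5 of the 8 were called, where 10.9% of all probe sets were. The median difference was -1.29 over the 8 genes and 0.003 over all genes. Because Inmt was chosen by this comparison, and the other members with its results known, these values are descriptions and no p-value is given for the members. In whole tissue, fewer cells that express a gene and less of its RNA per cell cannot be told apart.

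**Figure D1:**
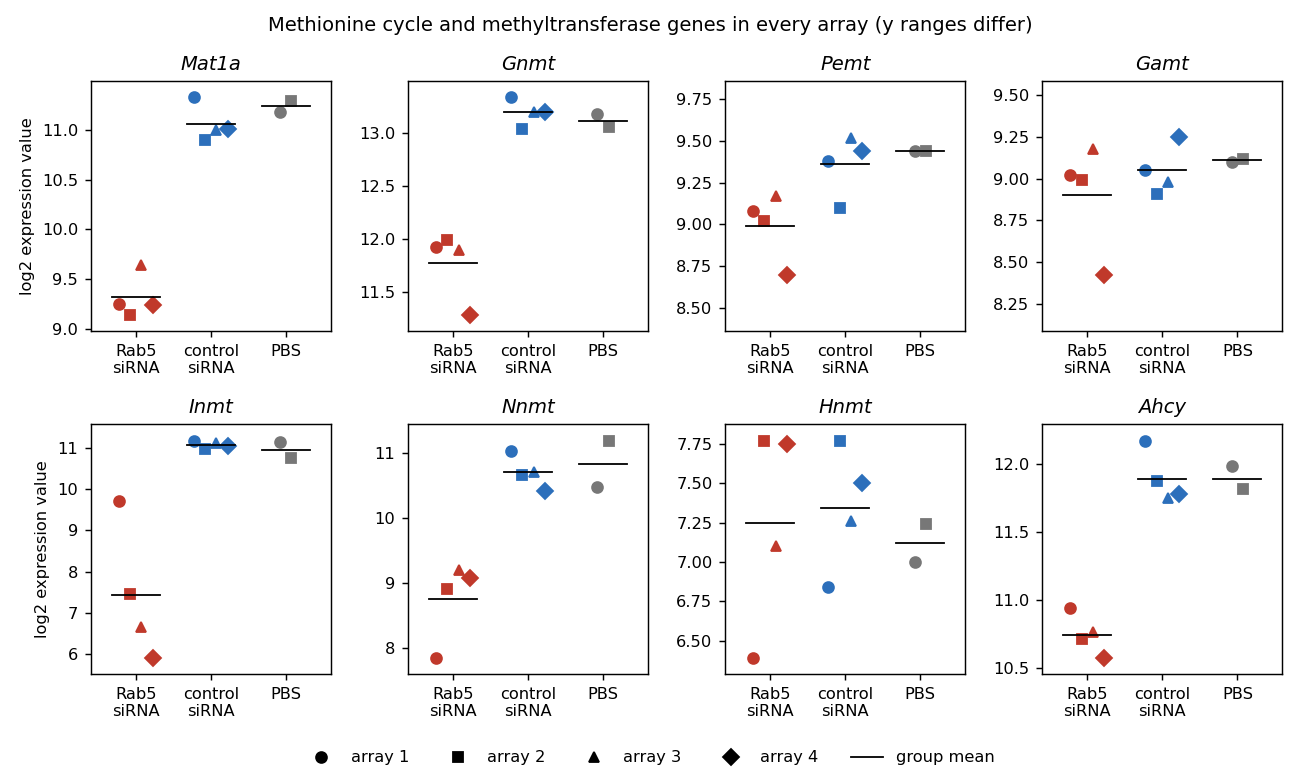
Deposited log2 expression value (y axis, ranges differ between panels) of the 8 measured genes in every array, by group on the x axis. Symbols give the replicate number and the line the group mean. For Inmt, Nnmt, Mat1a, Gnmt and Ahcy the 4 Rab5 siRNA arrays lie below all other arrays, and Gamt and Hnmt overlap between the groups.

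Mat1a, the enzyme that makes S-adenosylmethionine in hepatocytes (Entrez gene 11720), had log2 values of 9.25, 9.14, 9.64 and 9.24 in the Rab5 siRNA livers, against 11.33, 10.90, 11.00 and 11.01 in the control siRNA livers and 11.18 and 11.29 in the PBS livers. The Rab5 arrays formed a narrow band well under all 6 others. The difference from control siRNA was -1.74 (SE 0.127), which left 29.9% of the control signal. In Rab5 replicate 1, which stood apart on the first principal component, Mat1a stood at -1.81 relative to the control mean, and the other 3 Rab5 arrays averaged -1.72.

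Ahcy, which hydrolyses S-adenosylhomocysteine (Entrez gene 269378), had log2 values of 10.94, 10.71, 10.76 and 10.57 with Rab5 siRNA, against 12.17, 11.87, 11.75 and 11.78 with control siRNA and 11.98 and 11.81 with PBS. Again the Rab5 livers were below all others, with less spread within a group than between groups. The difference from control siRNA was -1.15 (SE 0.117), leaving 45.1% of the control signal.

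Gnmt methylates glycine to sarcosine and in mature liver uses up surplus S-adenosylmethionine. Its probe set (Entrez gene 14711) had log2 values of 11.92, 11.99, 11.89 and 11.28 with Rab5 siRNA, against 13.34, 13.04, 13.20 and 13.20 with control siRNA and 13.18 and 13.06 with PBS. Rab5 replicate 4 was the lowest of all arrays and the other 3 Rab5 arrays lay close together. The difference from control siRNA was -1.43 (SE 0.143), or 37.2% of the control signal.

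Inmt methylates indoleamines such as tryptamine and also thioethers. Its probe set (Entrez gene 21743) had log2 values of 9.71, 7.46, 6.67 and 5.91 in the Rab5 siRNA livers, against 11.17, 10.97, 11.11 and 11.03 in the control siRNA livers and 11.13 and 10.76 in the PBS livers. The 6 arrays without Rab5 siRNA lay within a narrow range, while the Rab5 arrays were spread widely below them (SD 1.64 with Rab5 siRNA and 0.0888 with control siRNA, n = 4 each). The difference from control siRNA was -3.64 (SE 0.564), or 8.05% of the control signal, and the next largest falls among all genes tested were those of Hsd3b5 (-3.37, SE 0.517), Upp2 (-3.07, SE 0.269) and Sult2a8 (-3.05, SE 0.302). The size of the Inmt difference depended on Rab5 replicate 1: relative to the control mean this array stood at -1.37 and the other 3 Rab5 arrays averaged -4.39 on the log2 scale.

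Nnmt, which methylates nicotinamide (Entrez gene 18113), had log2 values of 7.84, 8.90, 9.20 and 9.08 with Rab5 siRNA, against 11.03, 10.66, 10.70 and 10.41 with control siRNA and 10.48 and 11.19 with PBS. All Rab5 arrays were lower than all others. The difference from control siRNA was -1.95 (SE 0.261), or 25.9% of the control signal. Within the Rab5 group the replicate that was highest for Inmt was the lowest for Nnmt: relative to the control mean of Nnmt, replicate 1 stood at -2.86 and the other 3 averaged -1.64. The same array had the lowest Rab5a value (6.28, against 6.91 to 7.16 in the other 3) and the lowest Kupffer cell and macrophage marker level of its group (8.64, against 9.22 to 9.28), but the highest value of the other target Rab5c (7.36, against 6.99 to 7.28). The arrays numbered 1 also had the lowest Rab5a value (8.33 and 8.73) and the lowest Kupffer cell and macrophage marker level (8.31 and 8.38) of the control siRNA and PBS groups. The part of these measures in the within-group differences was not tested.

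**Figure D2:**
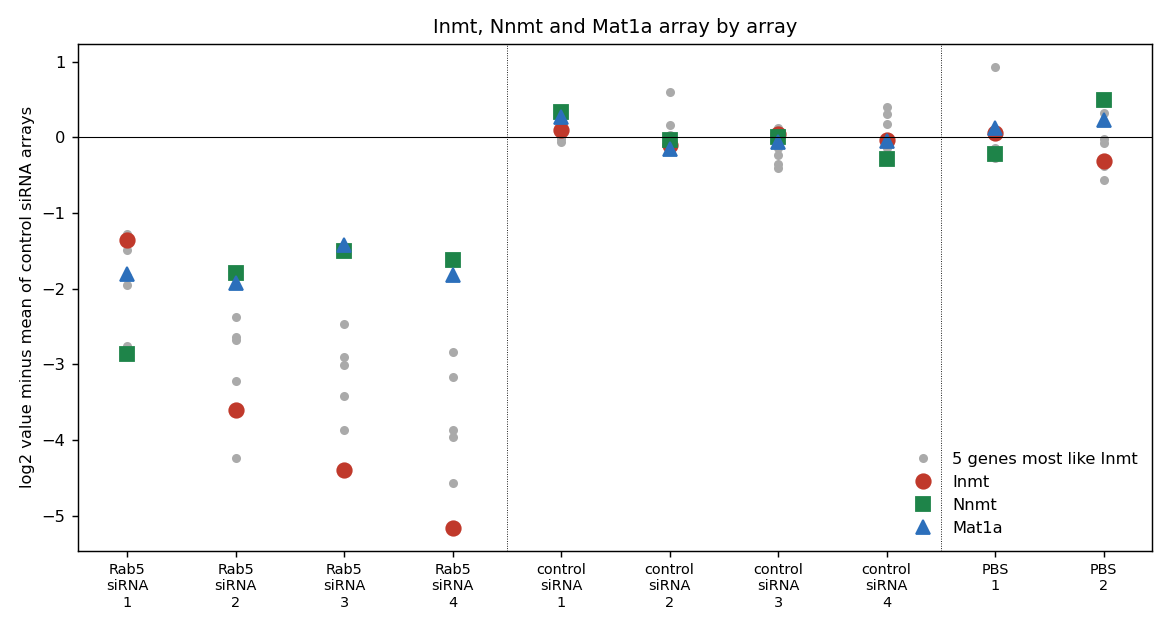
Log2 value minus the mean of the 4 control siRNA arrays (y axis) for Inmt, Nnmt, Mat1a and the 5 genes most like Inmt (grey), in each of the 10 arrays (x axis). In Rab5 siRNA replicate 1 Inmt is at -1.37 and Nnmt at -2.86, while in the other 3 Rab5 arrays Inmt is the lower of them.

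Pemt, which makes phosphatidylcholine from phosphatidylethanolamine, differed less. Its probe set (Entrez gene 18618) had log2 values of 9.08, 9.02, 9.17 and 8.70 with Rab5 siRNA, against 9.38, 9.10, 9.52 and 9.44 with control siRNA and 9.44 and 9.44 with PBS. Rab5 replicate 3 lay above control replicate 2, so the groups overlapped. The difference from control siRNA was -0.37 (SE 0.122), and Pemt was the member whose call ended when Rab5 replicate 2 or 4, or control replicate 1, 3 or 4, was left out, which made the count 5 of 8.

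Gamt, which completes creatine, and Hnmt, which inactivates histamine, overlapped between the groups. Gamt (Entrez gene 14431) had log2 values of 9.02, 8.99, 9.18 and 8.42 with Rab5 siRNA, against 9.05, 8.91, 8.98 and 9.25 with control siRNA and 9.10 and 9.12 with PBS. Only Rab5 replicate 4 lay under the other arrays, and the difference of -0.15 (SE 0.147) became 0.02 without it. Hnmt (Entrez gene 140483) had log2 values of 6.39, 7.77, 7.10 and 7.75 with Rab5 siRNA, against 6.84, 7.77, 7.26 and 7.50 with control siRNA and 7.00 and 7.24 with PBS. In each group the array numbered 1 was the lowest for Hnmt and the array numbered 2 the highest. The difference of -0.09 (SE 0.274) was 0.20 without Rab5 replicate 1 and 0.05 without control replicate 2. The 3' minus 5' log2 difference of the Gapdh control probe sets, a measure of RNA quality, was also highest in the arrays numbered 2 (2.67, 2.86 and 2.58 in the Rab5 siRNA, control siRNA and PBS groups) and 2.15 to 2.38 in the others, and its part in the Hnmt values was not tested.

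The upstream sequences of Inmt, Gnmt and Ahcy are shown because these genes were low together and RefSeq gives a start for each. Each line holds the 250 bases before the start that the RefSeq promoter table gives, 5' to 3' along the gene, from RefSeq on GRCm38.p6. All lie on the minus strand: Inmt at chr6:55174991-55175240, Gnmt at chr17:46729166-46729415 and Ahcy at chr2:155074498-155074747. The Gnmt gene as annotated in RefSeq reaches 46 bases into its window, so its outermost annotated end lies upstream of the start used, while the Inmt and Ahcy windows hold 0 bases of their genes. Capitals mark matches, on either strand, to the core of the TATA box (TATAAA), the CCAAT box (CCAAT), the GC box (GGGCGG), the core of the antioxidant response element (TGACNNNGC) or a repeat bound by the hepatocyte factor HNF4 (CAAAGTCCA).
Inmt: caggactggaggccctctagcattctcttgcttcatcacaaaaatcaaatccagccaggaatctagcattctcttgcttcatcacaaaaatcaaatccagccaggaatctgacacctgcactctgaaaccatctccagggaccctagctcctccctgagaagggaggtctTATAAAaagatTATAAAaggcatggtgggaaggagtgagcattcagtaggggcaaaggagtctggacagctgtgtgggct
Gnmt: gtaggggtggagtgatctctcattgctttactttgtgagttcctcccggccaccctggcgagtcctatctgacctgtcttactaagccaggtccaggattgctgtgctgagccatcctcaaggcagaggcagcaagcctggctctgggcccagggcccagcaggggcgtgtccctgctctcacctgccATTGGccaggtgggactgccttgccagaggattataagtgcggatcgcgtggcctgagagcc
Ahcy: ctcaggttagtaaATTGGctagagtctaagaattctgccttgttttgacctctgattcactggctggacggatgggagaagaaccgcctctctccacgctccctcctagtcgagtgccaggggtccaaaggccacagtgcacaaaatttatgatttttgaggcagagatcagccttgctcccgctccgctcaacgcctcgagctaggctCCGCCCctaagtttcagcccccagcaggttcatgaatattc
Inmt held TATAAA at -80 to -75 and at -69 to -64, counted from the start, and Gnmt and Ahcy held none. The CCAAT box was found in Gnmt (-62 to -58) and Ahcy (-237 to -233), and the GC box GGGCGG in Ahcy (-41 to -36), each on the other strand, where capitals show its complement. The other motifs matched none of the 3. No 2 of the marked matches overlapped. Of 32851 mouse promoter windows of the same length, 12.4% held the TATA core, 33.8% the CCAAT box, 32.7% the GC box, 10.2% the antioxidant core and 0.384% the HNF4 repeat.

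The Inmt window also carried a stretch of 46 bases 2 times in direct succession, from -235 to -190 and from -189 to -144, shown here because an exact repeat of that length was found in 0.198% of the 32851 windows.
Inmt repeat: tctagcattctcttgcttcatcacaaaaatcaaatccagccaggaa
The longest exact repeat in the Gnmt and Ahcy windows was 7 bases. These are descriptions of the sequence, and expression was not measured from it.

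Set against PBS in place of control siRNA, the Rab5 livers gave like values. The differences from PBS were -3.51 (SE 0.691) for Inmt, -2.08 (SE 0.319) for Nnmt, -1.92 (SE 0.156) for Mat1a, -1.35 (SE 0.176) for Gnmt, -1.15 (SE 0.144) for Ahcy and -0.45 (SE 0.150) for Pemt, with Gamt at -0.21 (SE 0.180) and Hnmt at 0.13 (SE 0.335). The model called 5 of the 8 lower, where it called 7.59% of all genes lower, and 6 lay below both PBS arrays without overlap, as 18.0% of all genes did. With the replicate number as a block 6 were called, Pemt being added, where 8.74% of all genes were called lower. Without the arrays numbered 2 the count was 3, Inmt and Nnmt being lost, and the share of all genes called lower was 2.83%. The 2 comparisons share the Rab5 arrays, so the second is no independent repeat of the first.

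Between control siRNA and PBS livers no difference in the 8 genes passed. Differences of control siRNA minus PBS lay between -0.18 (Mat1a, SE 0.156) and 0.22 (Hnmt, SE 0.335), 4 of 8 being negative. None of the 8 was called by limma (all adjusted p = 0.999), as none of the 12855 genes was (0% called). At an unadjusted p under 0.05 there were 0 of the 8 and 554 of all genes. Gnmt differed by 0.08 (SE 0.176), Ahcy by 0.00 (SE 0.144), Pemt by -0.08 (SE 0.150), Gamt by -0.06 (SE 0.180) and Nnmt by -0.13 (SE 0.319). Inmt differed by 0.13 (SE 0.691), which is a description because its control arrays took part in its choice. These errors rest on a spread shared by all groups, the Rab5 arrays included. For Inmt the SD was 1.64 with Rab5 siRNA, 0.0888 with control siRNA and 0.261 with PBS. That shared spread and the 2 PBS arrays both limit what could be detected. For Inmt, Nnmt, Mat1a, Gnmt and Ahcy the Rab5 livers were thus the lowest group. No difference between control siRNA and PBS livers was called for these genes.

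**Figure D3:**
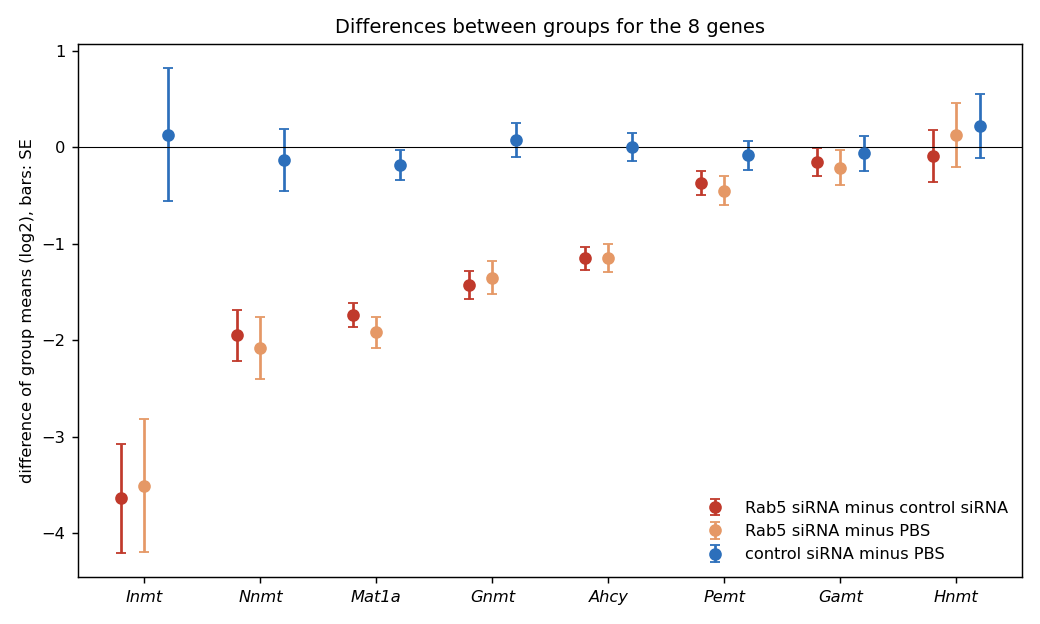
Difference of group means on the log2 scale (y axis, bars are SE) for the 8 genes (x axis), for Rab5 siRNA minus control siRNA, Rab5 siRNA minus PBS and control siRNA minus PBS. The first 2 run from -3.64 and -3.51 for Inmt to values near 0 for Gamt and Hnmt, and the third stays between -0.18 and 0.22.

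The genes most like Inmt and Mat1a were sought among all genes tested, passing over symbols that end in Rik or are Gm, LOC or BC with digits. Likeness was the root mean square difference over the 10 arrays after each gene was set to its own mean. Most like Inmt were Hsd3b5 (0.434), Sult2a8 (0.677), Elovl3 (0.766), Serpina6 (0.773) and Upp2 (0.838). Hsd3b5 and Elovl3 are known as genes of male mouse liver. Hsd3b5, a steroid dehydrogenase gene, had log2 values of 9.36, 6.40, 7.22 and 6.07 with Rab5 siRNA, against 10.64, 10.47, 10.41 and 11.04 with control siRNA and 10.72 and 10.56 with PBS. As for Inmt, Rab5 replicate 1 was the highest of its group, and the same held for Sult2a8 (9.33, against 7.41 to 8.11 in the other 3), Elovl3 (9.20, against 7.68 to 8.05) and Serpina6 (7.57, against 5.53 to 7.02), but not for Upp2 (6.66, against 5.46 to 6.75). For Mat1a the most alike were Lhpp (0.203), Clcn2 (0.206), Got1 (0.206), Prodh (0.210) and the target Rab5c (0.214). All 10 were lower with Rab5 siRNA (-3.37 to -1.53 against control siRNA), so likeness here includes the difference between the groups. Of the other members, Gnmt (0.306), Ahcy (0.364) and Nnmt (0.368) were closest to Mat1a, ranking 24, 54 and 57 among 12854 genes, here with no symbol passed over.

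The genes around the cycle were taken from 8 lists with 105 entries, of which 86 were tested. For Rab5 siRNA minus control siRNA 27 of the 86 fell (31.4%, against 9.51% of all genes) and 12 were called higher (14.0%, against 13.8% of all genes). Those 12 include Tpmt, whose probe sets disagree in direction, and Mtr, which passed the filter only through the Rab5 arrays. The median difference of the 86 was -0.17. The members above are not in these lists, but the lists too were chosen with earlier results of these data known. Their counts and p-values are therefore descriptions and no independent support. No gene of the lists was called for control siRNA minus PBS. Without Rab5 replicate 1 the list counts were 29 lower and 13 higher, where 10.4% of all genes were called lower and 16.2% higher. Without the arrays numbered 2 of every group they were 21 and 9, where 4.96% of all genes were called lower and 7.09% higher.

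Homocysteine is methylated back by Mtr with folate or by Bhmt with betaine. Of 9 genes of this list 4 fell and 1, Mtr, was called higher. The enzymes that strip methyl groups from the products of Bhmt and Gnmt fell: sarcosine dehydrogenase Sardh by 0.84 on the log2 scale (SE 0.146, adjusted p = 0.000958), dimethylglycine dehydrogenase Dmgdh by 0.60 (SE 0.0926, adjusted p = 0.000424) and the sarcosine oxidase Pipox by 0.67 (SE 0.0966, adjusted p = 0.000225). Bhmt (-0.09, SE 0.205) and Bhmt2 (-0.02, SE 0.0953) did not pass. Mtr was higher by 0.76 (SE 0.116), but it passed the filter on dim signals only through the Rab5 arrays (4.54 to 4.81). Its values with control siRNA (3.69 to 4.14) and PBS (3.83 and 4.09) were all under the table median of 4.33. The filter thus favoured a rise, and no p-value is given for Mtr. Another dim probe set of Mtr differed by 0.00 (SE 0.153).

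Of 8 folate genes 4 fell and 0 rose. Aldh1l1, which oxidises formyl-tetrahydrofolate, had log2 values of 10.55, 10.93, 11.02 and 10.44 with Rab5 siRNA, against 11.62, 11.56, 11.52 and 11.61 with control siRNA. The groups did not overlap, and the difference was -0.84 (SE 0.125, adjusted p = 0.000299). Mthfd1 fell by 0.69 (SE 0.105), the cytosolic serine hydroxymethyltransferase Shmt1 by 0.52 (SE 0.0902) and Ftcd by 0.39 (SE 0.106, adjusted p = 0.0169), the last with adjusted p = 0.0532 without control replicate 1. The mitochondrial Shmt2 (-0.18, SE 0.124) and Mthfd2 (0.25, SE 0.104) did not pass.

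In the path from homocysteine to cysteine and its products, 5 of 11 genes fell and 3 rose. Csad, which decarboxylates cysteine sulfinic acid on the way to taurine, had log2 values of 8.60, 7.94, 7.90 and 7.48 with Rab5 siRNA, against 9.88, 9.96, 10.01 and 9.97 with control siRNA. Every Rab5 array was below every control array, the difference being -1.97 (SE 0.198, adjusted p = 1.48e-05). Cth, which releases cysteine from cystathionine, had 9.42, 10.29, 9.82 and 10.10 with Rab5 siRNA, against 11.29, 11.10, 11.01 and 11.40 with control siRNA, a difference of -1.29 (SE 0.162, adjusted p = 7.99e-05). Sulfite oxidase Suox fell by 1.39 (SE 0.112), and Cbs, the first enzyme of the path, by 0.46 (SE 0.110, adjusted p = 0.00806; named after its values were seen). Ethe1, a mitochondrial persulfide dioxygenase, rose by 1.05 (SE 0.138, adjusted p = 0.000111). The glutathione synthesis genes Gclc (0.94, SE 0.195) and Gss (0.92, SE 0.0996) rose as well, and they too were named after their values were seen. Gclm, the other glutathione synthesis gene of the list, did not pass (0.25, SE 0.114, adjusted p = 0.132), and its groups overlapped.

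Genes of S-adenosylmethionine handling, polyamines and methionine salvage were mostly not called: of 15 genes 2 rose and 1 fell. Sat1, which acetylates polyamines, rose by 0.82 (SE 0.139, adjusted p = 0.000823). In the salvage of methionine from methylthioadenosine, Adi1 fell by 0.41 (SE 0.105, adjusted p = 0.0120) and Mri1 rose by 0.47 (SE 0.141, adjusted p = 0.0277). The Mri1 call ended without Rab5 replicate 1 (0.0505), Rab5 replicate 3 (0.0875) or control replicate 2 (0.0844), these being adjusted p-values, and that of Adi1 without the arrays numbered 2 (adjusted p = 0.0932). Mat2b, the regulatory subunit that partners the Mat2a enzyme, differed by 0.21 (SE 0.115, adjusted p = 0.213).

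Of 10 genes of other methyltransferases and of the creatine enzyme Gatm, 2 were called higher, Gatm and Tpmt, and 2 fell. Gatm, which makes the substrate of Gamt, rose by 0.88 (SE 0.171, adjusted p = 0.00221), and its Rab5 values of 6.82 to 7.32 lay above all control siRNA values. Mettl7b fell by 0.49 (SE 0.0976, adjusted p = 0.00276). Coq3 of ubiquinone synthesis fell by 0.34 (adjusted p = 0.0407), but its call ended without Rab5 replicate 1 (adjusted p = 0.0831), 2 (0.0854) or 3 (0.0893), or control replicate 1 (0.117), 2 (0.0663) or 4 (0.0943). The thiopurine methyltransferase Tpmt was called higher (0.49, SE 0.153, adjusted p = 0.0345), while its 3 other probe sets were lower (-0.36 to -0.22), so no direction is given for it. Its adjusted p was 0.111 and 0.0977 without Rab5 replicates 2 and 4, and 0.0711, 0.0668 and 0.0998 without control replicates 1, 2 and 3.

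In nicotinamide and NAD metabolism 6 of 14 genes fell and 0 rose. The falls named by size were in the route from tryptophan: Haao (-1.15, SE 0.129, adjusted p = 3.34e-05), Kynu (-1.06, SE 0.0958, adjusted p = 6.61e-06), Afmid (-1.04, SE 0.185, adjusted p = 0.00120) and Tdo2, its first enzyme (-1.01, SE 0.224, adjusted p = 0.00518). Kmo (-0.32, SE 0.146, adjusted p = 0.14) and Qprt (0.12, SE 0.0914, adjusted p = 0.401), also of this route, did not pass. Haao had log2 values of 10.29, 9.96, 10.06 and 9.63 with Rab5 siRNA, against 11.17, 10.97, 11.18 and 11.22 with control siRNA, without overlap. Nampt, which recycles the nicotinamide that Nnmt methylates, differed by 0.19 (SE 0.144, adjusted p = 0.391). Another, dim probe set of Kynu differed by -0.12 (SE 0.141).

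Of 11 genes of phosphatidylcholine and creatine, 3 rose and 2 fell. Chka, the choline kinase that opens the other route to phosphatidylcholine, had log2 values of 7.66, 7.72, 7.83 and 8.02 with Rab5 siRNA, against 6.41, 6.18, 6.29 and 6.36 with control siRNA. The groups lay far apart, the difference being 1.50 (SE 0.102, adjusted p = 8.52e-07), and its other probe sets gave 2.23 and 2.31. Chpt1, the cholinephosphotransferase at the end of that route, fell by 1.65 (SE 0.106, adjusted p = 5.60e-07), and its 3 other probe sets lay between -1.88 and -1.73. Chkb (-0.31, SE 0.128), Pcyt1a (0.01, SE 0.133) and Cept1 (0.25, SE 0.128), also of that route, did not pass. Creatine kinase Ckb rose by 0.93 (SE 0.115) and the creatine transporter Slc6a8 by 0.66 (SE 0.121).

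Of 8 genes of histidine and histamine 3 fell and 1 rose. The falls were in histidine breakdown: Hal fell by 1.89 (SE 0.132, adjusted p = 1.04e-06), Uroc1 by 0.53 (SE 0.0936) and Amdhd1 by 0.51 (SE 0.111). The histamine-forming Hdc differed by -0.03 (SE 0.119) and did not pass. Maoa, an amine oxidase, rose by 0.49 (SE 0.125, adjusted p = 0.0127), with adjusted p = 0.0853 without the arrays numbered 2.

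**Figure D4:**
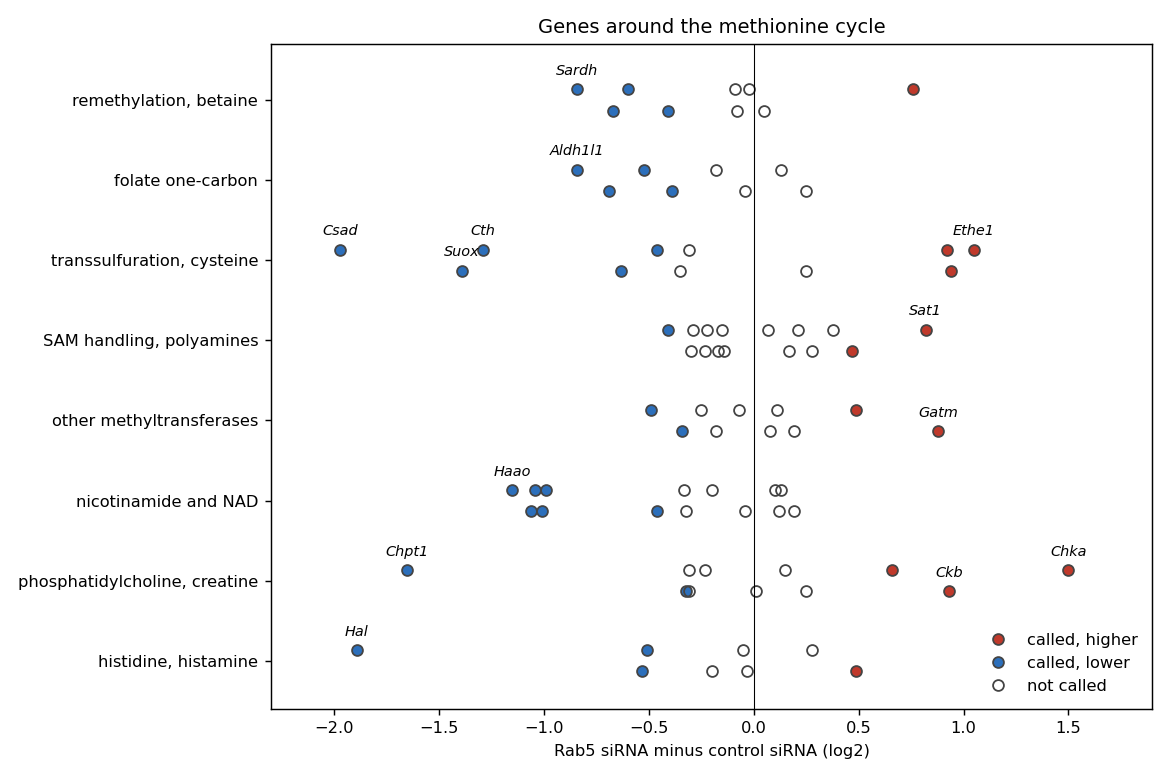
Difference of Rab5 siRNA minus control siRNA on the log2 scale (x axis) for the 86 tested genes of 8 lists around the methionine cycle (rows). Each circle is a gene, filled where limma called it, and the genes at the edges are named. Of the 86, 27 were called lower, with Csad at -1.97 and Hal at -1.89, and 12 higher, with Chka at 1.50 and Tpmt among them.

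Markers of other cells were looked at in the same groups. For Rab5 siRNA minus control siRNA 13.8% of all genes were called higher and 9.51% lower. Of 12 Kupffer cell and macrophage markers 7 rose and 0 fell, with a mean log2 level per array of 8.64 to 9.28 with Rab5 siRNA, 8.31 to 8.68 with control siRNA and 8.38 to 8.51 with PBS. Of 9 cell cycle genes 9 rose, their level being 7.35 to 7.94 with Rab5 siRNA, 4.85 to 5.78 with control siRNA and 4.43 to 4.49 with PBS. One of them, Bub1, passed the filter on dim signals only through Rab5 arrays (3.29 to 5.34), which favoured its rise. Its values were at most 2.69 with control siRNA and 2.32 with PBS. Of 10 stellate cell and fibroblast markers 2 rose (6.92 to 7.55 with Rab5 siRNA, 6.83 to 7.24 with control siRNA), and of 7 endothelial markers 1 rose and 3 fell (7.40 to 7.67 with Rab5 siRNA, 7.57 to 7.78 with control siRNA). Of 4 cholangiocyte markers 1 rose (4.94 to 5.30 with Rab5 siRNA, 4.74 to 4.89 with control siRNA), and of 5 lymphocyte markers 1 fell (4.88 to 5.05 with Rab5 siRNA, 5.24 to 5.33 with control siRNA). Cldn7, not called but part of the cholangiocyte level, passed the filter only through Rab5 arrays (4.11 to 4.55), which favoured a higher level. Cldn7 was at most 4.12 with control siRNA and 4.09 with PBS. Among 8 hepatocyte markers 1 rose and 1 fell. The lymphocyte marker that fell was Ighm (-1.38, SE 0.162), and the others, none of them called, lay between -0.26 (Nkg7) and 0.15 (Cd79a). In the stellate, cholangiocyte, lymphocyte and hepatocyte lists at most 2 genes were called, so no shift of these cells is read from the counts or levels. The Kupffer cell, stellate and endothelial levels overlapped between the Rab5 siRNA and control siRNA arrays. Values are log2, so no marker is at 0, and the part of these differences in the values of the methionine cycle genes was not tested.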

How the data were processed

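The deposited table holds log2 expression values of 45101 probe sets in 10 arrays. Per the submitters' processing notes, which give no order, the tools were RMA (robust multi-array average), Partek 6.6 and Affymetrix Expression Console, and RMA equalises the arrays, so a shift of all transcripts would not be seen. Array medians were 4.29 to 4.37 (deposited log2 values). Arrays have no read depth, and their number limits precision. No genome build of the array is given in the sources used here.

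Of the probe sets, 34945 had 1 symbol in the platform annotation, 932 several and 9160 none, besides 64 control probe sets. Probe sets with 1 symbol and values above the table median (4.33) in at least 2 arrays were kept, and the one with the highest mean stood for its gene, giving 12855 genes, 12833 of them with their symbol in the RefSeq table of GRCm38.p6. A mean per group was fitted with limma 3.58.1 in R 4.3.3 (lmFit, eBayes), with no block. Calls are at a Benjamini-Hochberg adjusted p under 0.05 over all genes. The model was tested on simulated data. Deviations of same-numbered Rab5 siRNA and control siRNA arrays from their group means correlated across genes by 0.391, 0.149, 0.186 and 0.312 for numbers 1 to 4. Rab5 siRNA arrays 1, 3 and 4 matched the control siRNA array of their own number best, but Rab5 siRNA array 2 matched control siRNA array 4 best. The main errors and calls leave a possible pairing by number out. A fit with the number as a block was an alternative, and its values are given where they change a call. What the pairing stands for is not given in the sources used here.

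The members and lists were chosen with earlier results of these data known. All members were named, from each list up to 4 called genes with the largest difference (where fewer than 2 were called, the 2 largest), the 5 genes most like Inmt and the 5 most like Mat1a, and the Rab5 genes. Genes outside this rule are given as values, as non-called contrasts or partners of a member, and were named after their values were seen. Alternatives were leaving out arrays, other filters, other probe set choices, array weights, a trended robust fit, a second quantile normalization and the 2 groups alone.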

Additional observations from a re-analysis of the deposited data

Results flagged for a closer look

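Gnmt in Rab5 siRNA replicate 4, at a log2 value of 11.28, lay far from the other 3 arrays of its group (11.89 to 11.99): its gap to the nearest was 0.853 of the range of the group. Chance gives such a gap in about 1 of 20 groups, and 16 groups of 4 were looked at. The other Rab5 arrays alone gave a Gnmt difference from control siRNA of -1.26.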

How the results depend on the processing

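Of the members, Inmt, Nnmt, Mat1a, Gnmt and Ahcy kept their direction and their call for Rab5 siRNA minus control siRNA under all 19 alternatives, Inmt between -4.39 and -3.13. Inmt was chosen by this comparison, and the others with its results known. The kept calls therefore describe the dependence on processing and are no separate support. The number of members called lower was 5 to 6 for that comparison, with 6 under the replicate block, which changed no member's call there. For Rab5 siRNA minus PBS it was 5 with any array left out, 6 with the replicate block, the filter at the 75th percentile, array weights or the trended robust fit (Pemt added in each) and 3 without the arrays numbered 2. All genes called there in either direction were 2201 in the main fit and 2286, 1991, 3110, 2270 and 802 in those last 5 settings. The filter at the 75th percentile tests fewer genes. In the fit of all probe sets without a filter it was 5 to 6 over the alternatives. With the replicate block the lists around the cycle had 29 genes lower and 13 higher, and over all alternatives 21 to 30 and 9 to 14. The number of all genes called for Rab5 siRNA minus control siRNA, in either direction, changed as well. It was 2993 in the main fit, 1549 without the arrays numbered 2 and 3929 with array weights, so the list counts alone do not show a change in the lists. Of the named calls, Pemt lost its own under 9 of the 19 alternatives, Coq3 under 12, Tpmt under 8, Mri1 under 6, Ftcd under 2, and Adi1 and Maoa under 1 each. Mtr could not be given with the filter at the 75th percentile.

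Directions turned where differences were small, and the cause was not tested. For Rab5 siRNA minus control siRNA, Hnmt (main value -0.09, range -0.26 to 0.20 with an array left out) stood at 0.20 without Rab5 replicate 1, 0.05 without control replicate 2, 0.14 with array weights and 0.03 without the arrays numbered 1, and Gamt at 0.02 without Rab5 replicate 4 (range -0.24 to 0.02). Tpmt stood at -0.09 with the mean of its probe sets. For Rab5 siRNA minus PBS, Hnmt stood at -0.04 and -0.03 without Rab5 replicates 2 and 4 (range -0.04 to 0.42). For control siRNA minus PBS, Ahcy stood at -0.09 without control replicate 1, -0.08 without PBS replicate 2, 0.00 with quantile normalization and -0.02 with array weights, Pemt at 0.01 without control replicate 2, and Inmt at -0.05 and Nnmt at 0.22 without PBS replicate 2; their ranges with an array left out were -0.09 to 0.09, -0.13 to 0.01, -0.05 to 0.31 and -0.49 to 0.22. Dim probe sets have compressed differences, and no detection calls were used.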
